A study of Rattus rattus with 8 samples.

Results

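Target genes of the hypoxia-inducible factors (HIF) were followed in RNA sequencing libraries of tetraploid (4n) and diploid (2n) cells, which were sorted from cultured cardiomyocytes of newborn rats. The list was drawn up from known HIF targets and holds 37 genes under 39 spellings, and a gene belonged to it when its listed name stood in the deposited table. By that rule 36 genes were found, in 37 rows of a table of 30957 genes. Ca12 matched no row by that name, and the row the table names Car12 was not counted as a member. Pfkfb4 had a pair of rows, 1 of them at 0 counts in all 8 libraries, and the other 36 rows had enough counts to be tested among 12983 genes.

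There were 8 libraries, 4 of 4n and 4 of 2n cells, numbered 1 to 4 in each group and described as biological replicates of independent experiments. Cells came from SD rat pups 1 to 3 days after birth. After differential adherence they spent 24 h in 0.2 mM AraC, which blocks DNA synthesis, with a supplement of insulin, transferrin and selenium, and were then starved of serum and held at 1% oxygen for 48 h, and this holds for both groups. Sorting used a Hoechst DNA dye at 2 µg/mL, and a 4n signal can come from a tetraploid nucleus, a cell with a pair of nuclei, a cell in G2 or M phase or cells stuck together. No library of cells kept at normal oxygen was analysed here, so the levels below are levels under hypoxia and not inductions by it.

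HIF is a transcription factor made of an oxygen-sensitive alpha subunit and the constant partner ARNT. With oxygen present, prolyl hydroxylases mark the alpha subunit for VHL and the proteasome. In low oxygen the alpha subunit accumulates, and the factor binds hypoxia response elements near genes of glycolysis, mitophagy, pH control, vessel growth and collagen processing. In heart muscle and in the stromal cells around it, this programme is known for moving energy supply from respiration towards glycolysis.

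Total counts lay between 14783521 and 21033772 per library. Mitochondrial genes took between 2.87% and 3.82% of the counts in all 2n libraries and in 4n replicate 1, and between 24.1% and 25.9% in 4n replicates 2, 3 and 4. The 11 cardiomyocyte markers summed to 4171, 7987, 30407 and 11007 CPM in 4n replicates 1 to 4 and to 974, 497, 748 and 942 CPM in 2n (CPM, counts scaled to a common library size by TMM), and 11 of 11 were called higher in 4n by the edgeR test used below. The 8 fibroblast markers summed to 48980, 51619, 29527 and 29815 CPM in 4n and to 54110, 54576, 57772 and 44355 CPM in 2n, so fibroblast markers were abundant in every library although the cells are labelled as cardiomyocytes. Most of each fibroblast sum was Col1a1 and Col3a1. Sums of erythroid markers stayed at or below 0.901 CPM in each library, with Alas2 at 0 in all. Macrophage markers summed to at most 10.2 CPM, with Cd163 at 0 in all.

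The HIF targets were low in replicate 2 in both groups. In replicate 2, the mean over the 4n and 2n libraries was the lowest of the 4 replicate numbers for 36 of 36 tested members, as it was for 25.2% of all genes tested. For 27 of the 36 members both replicate 2 libraries lay below the other 6, as they did for 7.35% of all genes tested, and no member lay above them, against 6.29% of all genes. Fold differences of replicate 2 are taken between means of log2 CPM. The median member was 2.71-fold lower in replicate 2 than in the other libraries (a log2 difference of -1.44, against -0.01 over all genes tested), and 26 of 36 members, against 4.09% of all genes, were at least 2-fold lower. The members together summed to 5705 CPM in 4n and 5606 CPM in 2n of replicate 2, against 11779 to 14837 CPM in the other 6 libraries. Replicate 2 is 1 experiment, singled out with earlier results of these data known, so these values are a description and no test was made. In bulk libraries, fewer cells of a type and less RNA of a gene per cell cannot be told apart.

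**Figure D1:**
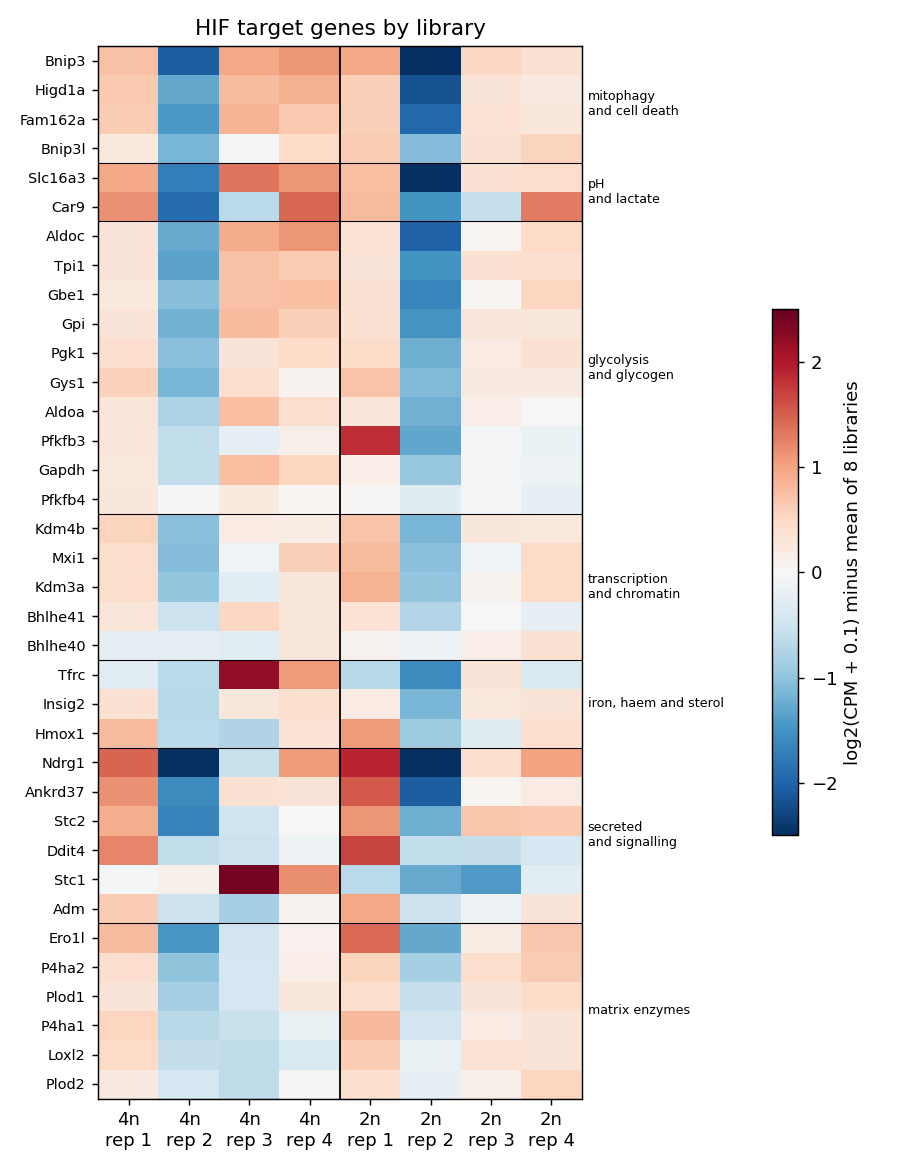
Deviation of log2(CPM + 0.1) from its mean over the 8 libraries for the 36 tested HIF targets (rows, grouped by role), with the 4n libraries left of the 2n libraries; colours saturate at 2.5. The columns of 4n and 2n replicate 2 are blue for nearly all genes, and the columns of the other 6 libraries are mostly pale or red.

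All 4 genes of mitophagy and cell death had both replicate 2 libraries below the other 6, with a median gap of 4.87-fold. Bnip3, on chromosome 1 from 211248098 to 211265282 in Rnor_6.0, encodes a mitophagy receptor of the outer mitochondrial membrane. In replicate 2 it had 30.6 CPM in 4n and 21.2 CPM in 2n, against 215, 252 and 278 CPM in 4n and 248, 185 and 167 CPM in 2n of replicates 1, 3 and 4. The highest replicate 2 value was thus far below the lowest of the others, and the mean difference was 8.63-fold. Higd1a, an assembly factor of the respiratory chain, stood at 28.5 CPM in 4n and 15.1 CPM in 2n of replicate 2, against 109, 118 and 127 CPM in 4n and 104, 86.1 and 80.9 CPM in 2n of the others. Fam162a, a mitochondrial protein linked to cell death in hypoxia, had 59.7 CPM in 4n and 40.9 CPM in 2n there, against 249.6, 289 and 254 CPM in 4n and 244, 206 and 196 CPM in 2n of the others. Bnip3l, the paralogue of Bnip3, differed less, with 62.6 CPM in 4n and 64.7 CPM in 2n of replicate 2, against 163, 133 and 192 CPM in 4n and 214, 179 and 202 CPM in 2n of the others. For all 4 genes the replicate 2 libraries stood apart from the rest, by 2.80-fold to 8.63-fold.

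The pair of genes for pH and lactate had the widest gaps of any role, with a median of 6.94-fold. Slc16a3, on chromosome 10 from 110138586 to 110148358, encodes the lactate exporter MCT4. It had 37.1 CPM in 4n and 13.0 CPM in 2n of replicate 2, against 239.7, 312 and 267 CPM in 4n and 209, 162 and 167 CPM in 2n of replicates 1, 3 and 4, a 9.97-fold difference between means of log2 CPM. Car9, a carbonic anhydrase of the cell surface, had 5.58 CPM in 4n and 7.59 CPM in 2n of replicate 2, against 47.4, 13.4 and 58.2 CPM in 4n and 37.1, 14.4 and 53.1 CPM in 2n of the others. Replicate 3 was also low in Car9, below replicates 1 and 4 and above replicate 2 in both groups.

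**Figure D2:**
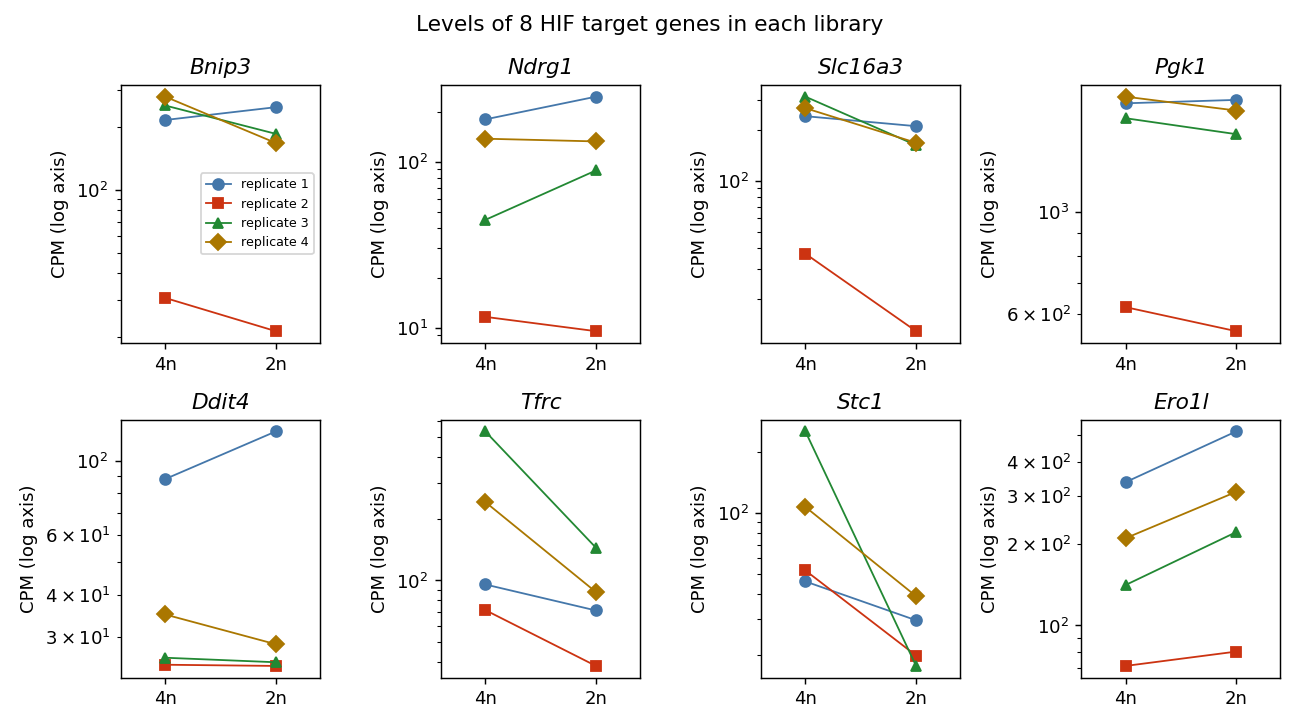
CPM of 8 HIF targets (log axis) in the 4n library (left) and 2n library (right) of each replicate number, joined by a line per replicate. Bnip3, Ndrg1, Slc16a3, Pgk1 and Ero1l are lowest in replicate 2 in both groups, Ddit4 is highest in replicate 1 in both, and Tfrc and Stc1 are highest in 4n replicate 3.

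Glycolytic enzymes were among the most abundant members per length of transcript. Their mean deposited FPKM over the 8 libraries was 969 for Aldoa, 772 for Pgk1 and 738 for Gapdh, the highest of the list, while Pfkfb4 had 0.274. Of the 10 tested rows of glycolysis and glycogen, 9 had both replicate 2 libraries below the other 6. Pgk1, phosphoglycerate kinase, had 621 CPM in 4n and 551 CPM in 2n of replicate 2, against 1719, 1596 and 1777 CPM in 4n and 1749, 1474 and 1658 CPM in 2n of the others. Aldoa, the muscle-type aldolase, had 845 CPM in 4n and 626 CPM in 2n there, against 1780.1, 2426 and 1977 CPM in 4n and 1796, 1634 and 1467 CPM in 2n of the others, and Gapdh, glyceraldehyde-3-phosphate dehydrogenase, had 457 CPM in 4n and 363 CPM in 2n, against 838, 1187 and 1011 CPM in 4n and 791, 688 and 641 CPM in 2n of the others. These 3 genes have processed copies elsewhere in the genome, and the sources used here do not give how the counting shared reads among copies.

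The isomerases and the other aldolase were low in replicate 2 as well. Tpi1, triosephosphate isomerase, had 98.4 CPM in 4n and 88.2 CPM in 2n of replicate 2, against 312, 414 and 389 CPM in 4n and 313, 326 and 333 CPM in 2n of the others. Gpi, glucose-6-phosphate isomerase, had 248 CPM in 4n and 201 CPM in 2n, against 697, 963 and 849 CPM in 4n and 735, 687 and 679 CPM in 2n of the others. Aldoc, the brain-type aldolase, showed the widest gap of the group with 12.6 CPM in 4n and 7.29 CPM in 2n of replicate 2, against 37.5, 57.6 and 64.7 CPM in 4n and 38.8, 31.3 and 42.6 CPM in 2n of the others. Both glycogen enzymes followed. Gys1, muscle glycogen synthase, had 85.0 CPM in 4n and 87.2 CPM in 2n of replicate 2, against 280.1, 253 and 198 CPM in 4n and 307, 220.0 and 220.5 CPM in 2n of the others. Gbe1, the branching enzyme, had 24.0 CPM in 4n and 16.3 CPM in 2n there, against 59.7, 83.9 and 85.8 CPM in 4n and 65.7, 52.1 and 73.6 CPM in 2n of the others.

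The regulators of fructose 2,6-bisphosphate had lower levels. Pfkfb3, whose product drives phosphofructokinase, had 20.7 CPM in 4n and 13.0 CPM in 2n of replicate 2, against 39.6, 27.8 and 35.5 CPM in 4n and 116, 31.4 and 28.7 CPM in 2n of replicates 1, 3 and 4. Its 2n replicate 1 value stood far above the other 7 libraries. Pfkfb4, its paralogue, had 10 to 18 counts per library, and its 4n replicate 2 library lay among the others.

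Among transcription and chromatin regulators, 4 of 5 had both replicate 2 libraries lowest. The histone demethylase Kdm4b had 27.8 CPM in 4n and 25.8 CPM in 2n of replicate 2, against 83.8, 66.3 and 65.0 CPM in 4n and 93.3, 69.2 and 69.0 CPM in 2n of the others. Kdm3a, another histone demethylase, had 45.1 CPM in 4n and 44.6 CPM in 2n of replicate 2, against 119.8, 73.6 and 107 CPM in 4n and 162, 93.5 and 124 CPM in 2n of the others. In both genes the highest replicate 2 value was well below the lowest of the rest. Mxi1, a MYC antagonist, had 18.1 CPM in 4n and 18.4 CPM in 2n of replicate 2, against 51.6, 35.7 and 58.0 CPM in 4n and 66.5, 36.2 and 53.4 CPM in 2n of the others. Bhlhe41, a transcriptional repressor of the circadian system, had 2.90 CPM in 4n and 2.52 CPM in 2n, against 5.21, 6.08 and 5.19 CPM in 4n and 5.43, 4.24 and 3.64 CPM in 2n of the others. Its paralogue Bhlhe40 was the exception, with 126 CPM in 4n and 135 CPM in 2n of replicate 2 within the range of 122 to 195 CPM of the others.

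Secreted and signalling members spread widely, with log2 differences of replicate 2 between -3.52 and -0.71. Ndrg1, on chromosome 7 from 107734299 to 107775706, is a stress-responsive gene widely used as a hypoxia marker. It had the widest gap of all members, 11.5-fold, with 11.6 CPM in 4n and 9.50 CPM in 2n of replicate 2, against 181, 44.7 and 138 CPM in 4n and 248, 88.8 and 133 CPM in 2n of replicates 1, 3 and 4. Ankrd37, an ankyrin repeat protein, had 0.595 CPM in 4n and 0.391 CPM in 2n of replicate 2, from 8 and 9 counts, against 4.46, 2.58 and 2.48 CPM in 4n and 5.85, 2.01 and 2.27 CPM in 2n of the others. Stc2, a secreted stanniocalcin, had 23.8 CPM in 4n and 32.4 CPM in 2n there, against 141, 53.5 and 76.4 CPM in 4n and 163, 122 and 119 CPM in 2n of the others.

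Ddit4 and Adm set replicate 1 apart more than replicate 2. Ddit4, an inhibitor of mTORC1, had 88.2 CPM in 4n and 122 CPM in 2n of replicate 1, and between 24.6 and 34.9 CPM in the other 6 libraries. Its replicate 2 libraries, at 24.8 CPM in 4n and 24.6 CPM in 2n, were the lowest by a narrow margin. Adm, the vasodilator peptide adrenomedullin, had 61.2 CPM in 4n and 62.2 CPM in 2n of replicate 2, against 139, 49.8 and 94.2 CPM in 4n and 175, 82.0 and 112 CPM in 2n of the others, so 4n replicate 3 was lower still.

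Of the iron, haem and sterol genes, Insig2, which holds back sterol synthesis, had 6.17 CPM in 4n and 4.47 CPM in 2n of replicate 2, against 13.2, 12.2 and 13.2 CPM in 4n and 11.5, 12.1 and 12.6 CPM in 2n of the others. The other 6 libraries lay within 11.5 to 13.2 CPM. Hmox1, haem oxygenase 1, had 79.8 CPM in 4n and 68.5 CPM in 2n of replicate 2, against 221, 76.0 and 162 CPM in 4n and 269, 104 and 171 CPM in 2n, so that 4n replicate 3 overlapped with it. Hmox1 is also a known target of the factor NRF2.

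Enzymes that modify collagen, with the oxidative folding enzyme Ero1l, had the smallest gaps of any role, with a median of 1.82-fold. Ero1l, an oxidase of the endoplasmic reticulum on chromosome 15 from 19619973 to 19655381, had 71.0 CPM in 4n and 80.2 CPM in 2n of replicate 2, against 336, 141 and 209 CPM in 4n and 517, 220.5 and 310.0 CPM in 2n of the others. P4ha2, a subunit of collagen prolyl hydroxylase, had 276 CPM in 4n and 310.1 CPM in 2n there, against 732, 414 and 622 CPM in 4n and 812, 751 and 858 CPM in 2n of the others, and the lysyl hydroxylase Plod1 had 268 CPM in 4n and 318 CPM in 2n, against 599, 357 and 577 CPM in 4n and 651, 599.8 and 653 CPM in 2n of the others. These 3 had both replicate 2 libraries below the other 6. The other 3 did not: P4ha1, the main catalytic subunit of collagen prolyl hydroxylase, was 1.71-fold lower on average, Loxl2, a lysyl oxidase, 1.43-fold, and Plod2, the telopeptide lysyl hydroxylase, 1.35-fold. In P4ha1, Loxl2 and Plod2, 4n replicate 3, at 695, 439 and 710 CPM, lay below 2n replicate 2, at 739, 599.7 and 957 CPM.

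**Figure D3:**
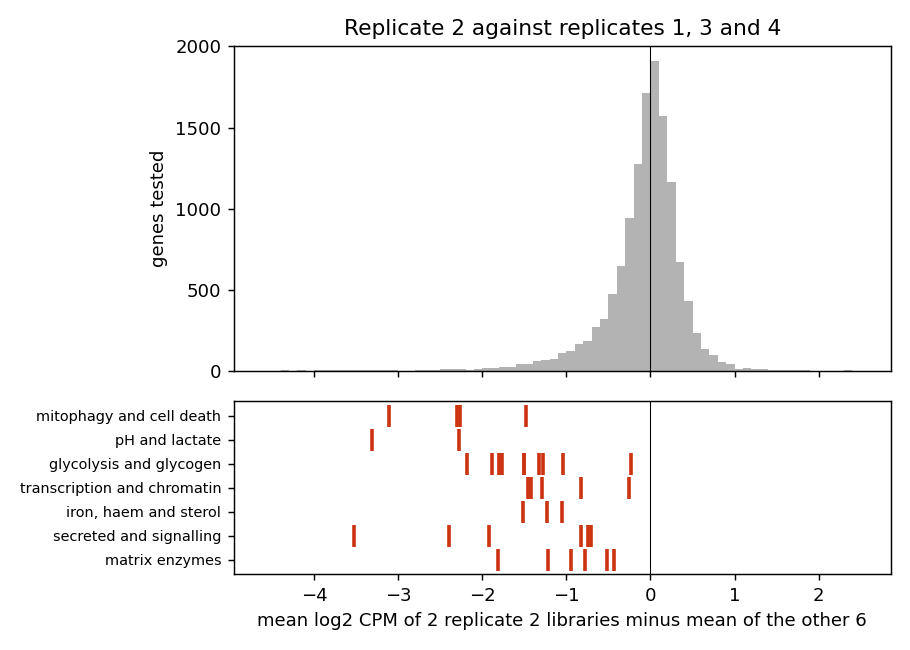
Mean log2 CPM of the 2 replicate 2 libraries minus the mean of the other 6, for all 12983 genes tested (grey histogram, top) and for the 36 HIF targets by role (red ticks, bottom). All 36 ticks lie left of 0, from -3.52 for Ndrg1 to -0.23 for Pfkfb4, while the histogram centres on 0.

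Other genes of the pathway, in a list of hypoxia-induced genes that holds no member, were mostly low in replicate 2 as well. Of 29 tested rows of other hypoxia-induced genes, 21 had both replicate 2 libraries below the other 6 and 0 had them above. Over all genes tested the shares were 7.35% and 6.29%. The median log2 difference of the 29 rows was -1.27. This list too was chosen with earlier results of these data known, so its counts are a description and not separate evidence. Pkm has a pair of rows among them, and Egln3 is also in the list of HIF subunits and hydroxylases. Egln3, itself a hydroxylase that acts on HIF, had 38.2 CPM in 4n and 4.95 CPM in 2n of replicate 2, against 48.1 to 354 CPM in the other 6 libraries. Ak4, a mitochondrial adenylate kinase, had 3.12 CPM in 4n and 2.82 CPM in 2n of replicate 2, against 14.1 to 22.4 CPM in the others. Pdk1, a kinase that turns down pyruvate dehydrogenase, had 17.5 CPM in 4n and 14.1 CPM in 2n of replicate 2, against 72.0 to 109 CPM in the others. Pfkl, a phosphofructokinase, had 74.1 and 72.3 CPM in 4n and 2n of replicate 2, and the others lay close together between 358 and 394 CPM. The glucose transporter gene Slc2a1 had 81.1 and 68.3 CPM in 4n and 2n of replicate 2, against 198 to 367 CPM in the others.

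The subunits of HIF itself did not follow. Of 9 tested genes of HIF subunits and their hydroxylases, 1 (Egln3) had both replicate 2 libraries below the other 6 and 2 had them above. Over all genes tested the shares were 7.35% and 6.29%. The median log2 difference of the 9 genes was -0.03. Hif1a had 137 CPM in 4n and 148 CPM in 2n of replicate 2, within the 105 to 149 CPM of the other 6. Epas1, which encodes HIF-2 alpha, had 129 and 138 CPM in 4n and 2n of replicate 2, above the 61.3 to 127 CPM of the others. Replicate 4 was close behind in Epas1, at 124 CPM in 4n and 127 CPM in 2n. Arnt2, a relative of ARNT, had 30.93 and 32.50 CPM in 4n and 2n of replicate 2, barely above the 14.96 to 30.86 CPM of the others. Protein levels of HIF were not analysed here.

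Among the markers of smooth muscle and pericytes, the smooth muscle genes Acta2 and Tagln were high in replicate 2. Their 6 genes summed to 10016 CPM in 4n and 9536 CPM in 2n of replicate 2, against 5330 to 7205 CPM in the other 6 libraries. Acta2 and Tagln, 2 of the 6, had both replicate 2 libraries highest, against 6.29% of all genes tested. Those 2 genes made up most of the sum, with 4712 and 3522 CPM in 4n and 4430 and 3076 CPM in 2n of replicate 2. The pericyte marker Rgs5 had 9.07 CPM in 4n and 8.85 CPM in 2n of replicate 2, within the 7.13 to 51.4 CPM of the others, and the log2 differences of replicate 2 were -0.83 for Rgs5, 0.25 for Pdgfrb, 0.30 for Cnn1 and 1.16 for Myh11. The part of these cells in the result was not tested. Cardiomyocyte markers of 2n replicate 2, at 497 CPM, were the lowest of the 8 libraries, while those of 4n replicate 2, at 7987 CPM, lay within the 4n range. Fibroblast markers of 2n replicate 2, at 54576 CPM, lay within the 2n range of 44355 to 57772 CPM. Both replicate 2 libraries were lowest for 0 of 8 fibroblast markers, against 7.35% of all genes tested. For the 11 cardiomyocyte markers that count says nothing, since their 4n levels were far above those in 2n. Within groups, 2n replicate 2 was the lowest 2n library for 9 of the 11, against 3492 of 12983 genes. For 0 of the 11 was 4n replicate 2 the lowest 4n library, against 2840 of 12983 genes. The mean log2 difference of replicate 2 was negative for 11 of 11, with a median of 1.82-fold lower. Of all libraries, 2n replicate 2 had the highest total count and 4n replicate 2 the third lowest.

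How the members varied together was described by dividing the sum of squares of log2 CPM. For the median member, 91.7% lay between replicate numbers and 5.13% between 4n and 2n, against 56.1% and 17.1% for the median gene tested. Without the replicate 2 libraries, 46.5% lay between replicate numbers and 36.8% between 4n and 2n for the median member, against 47.7% and 23.9% for the median gene tested, so the high share between numbers rested on replicate 2. The transferrin receptor gene Tfrc had 66.0% between replicate numbers and 27.8% between 4n and 2n. Stc1 had 15.6% and 59.0%, the lowest share between replicate numbers in the list.

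With each group's mean removed, Pearson's r of log2 CPM over the 8 libraries had a median of 0.83 between pairs of members and 0.00 between pairs of all genes tested. Each member's r with the mean profile of the other members had a median of 0.93, with the lowest, 0.30, in Stc1. Kdm4b, Pgk1 and Bnip3l were closest to the others, at 0.99, 0.99 and 0.98. These are descriptions with no p, since libraries with the same number resemble each other and the 8 points are not independent. Without the replicate 2 libraries the median r between members was 0.27, so much of the variation shared by the whole list was the contrast of replicate 2 with the rest. Within roles it was then 0.80 for collagen modification and folding, 0.79 for secreted and signalling genes and 0.58 for mitophagy and cell death. It was 0.30 for glycolysis and glycogen, 0.26 for transcription and chromatin, -0.28 for pH and lactate and -0.45 for iron, haem and sterol. The mean of replicate 1 was the highest of all 4 replicate numbers in 23 of 36 members, that of replicate 3 in 7 and that of replicate 4 in 6, against 27.4%, 28.0% and 22.0% of all genes tested for replicates 1, 3 and 4.

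Outside the 37 matched rows, the genes whose profile was most like the mean of the members, among genes with at least 5 CPM on average, had r between 0.988 and 0.997 over the 8 libraries with group means removed. In order they were Eno2, LOC100911625, Papd5, AABR07044089.1, Slc2a1, Klc4, Pygl, Syt17, G0s2 and Car12. Much of the members' profile is the low replicate 2, so low values there follow from the choice of these genes. A high r does not give the size of the gap, which ran from 1.28-fold in Papd5 to 10.9-fold in G0s2. Eno2, neuronal enolase, had 26.8 and 27.3 CPM in 4n and 2n of replicate 2, and was 4.11-fold lower there than in the others. The table describes LOC100911625 as similar to gamma-enolase, so it may share reads with Eno2. Car12, described in the table as carbonic anhydrase 12 and so probably the listed Ca12 under another name, had 2.83 and 2.43 CPM in 4n and 2n of replicate 2, 9.64-fold below the others, and Pygl, liver glycogen phosphorylase, was 6.21-fold lower.

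Between 4n and 2n cells, none of the 36 tested members passed the test. In edgeR's quasi-likelihood test without the replicate number, 0 members were higher and 0 lower in 4n at an adjusted p under 0.05, against 2.67% and 0.0077% of all 12983 genes, and at an unadjusted p under 0.05 there were 2 higher and 0 lower, against 1630 higher and 626 lower of all 12983 genes. DESeq2 called 1 member higher and 0 lower, against 931 higher and 82 lower of 18337 genes. The median log2 fold change of the members was -0.03, with 17 positive and 19 negative, against -0.01 over all genes. The spread within each group was wide, as in Bnip3, which had 194 ± 112 CPM in 4n and 155 ± 95.7 CPM in 2n (SD, n = 4 each).

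**Figure D4:**
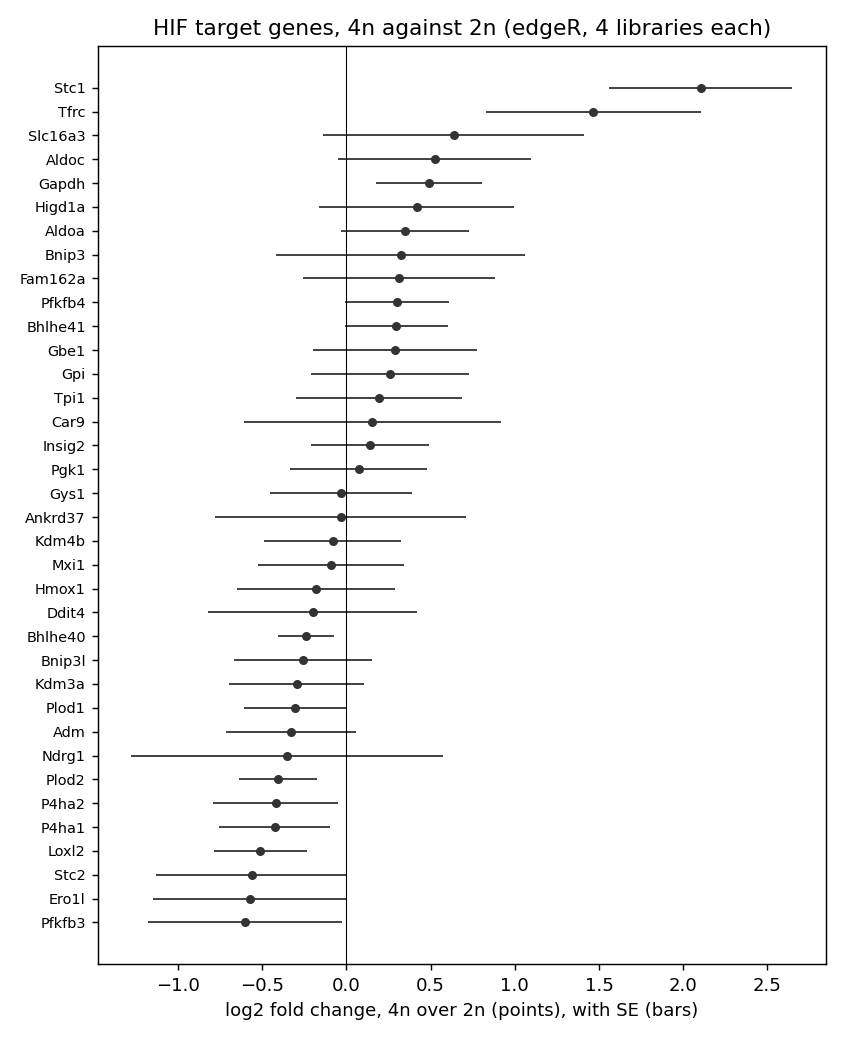
Fitted log2 fold change of 4n over 2n for the 36 tested HIF targets (points) with its standard error (bars), from edgeR over 4 libraries of each group without the replicate number. None passed; Stc1 (2.10) and Tfrc (1.47) stand highest, and the rest lie between -0.60 and 0.64.

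Because the numbers were taken as pairs, 4n was also compared with 2n within each number. When the replicate number entered as a block, 9 of 36 members were higher and 10 lower at an unadjusted edgeR p under 0.05. Over all 12983 genes these counts were 2198 higher and 1688 lower. At an adjusted p under 0.05, edgeR with the block called 0 members higher and 1 lower, against 4.27% and 0.608% of all genes. The 1 was Ero1l, lower in 4n in 4 of 4 pairs by log2 differences of -0.62, -0.18, -0.65 and -0.57 in replicates 1 to 4. Its log2 fold change was -0.50 ± 0.11 (SE) with the block (edgeR adjusted p = 0.0450), and -0.57 ± 0.57 without it (edgeR adjusted p = 0.647). The call with the block was lost on leaving out the pair of replicate 1, 2, 3 or 4 (edgeR adjusted p = 0.0566, 0.0960, 0.0560 and 0.250). Without the pair of replicate 2 or 4, however, the fit with the block called 0 genes of the whole table in either direction. The loss in those settings is therefore not particular to Ero1l. Without the pair of replicate 3 it called 558 genes higher and 50 lower. Without the pair of replicate 1, the fit with the block called 8 members higher and 2 lower in 4n, and 1254 genes higher and 399 lower in all. Ero1l had 189 ± 113 CPM in 4n and 282 ± 183 CPM in 2n (SD, n = 4 each).

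All 6 genes of collagen modification and oxidative folding were lower in 4n in 4 of 4 pairs, and 5 of them passed neither without nor with the block. Over the whole list 10 of 36 members were lower in every pair and 8 higher, against 19.7% and 20.2% of all genes tested. The other 5 enzymes had log2 fold changes of -0.51 ± 0.28 (Loxl2), -0.43 ± 0.33 (P4ha1), -0.42 ± 0.37 (P4ha2), -0.40 ± 0.23 (Plod2) and -0.30 ± 0.31 (Plod1) (SE, edgeR adjusted p from 0.382 to 0.653). Their differences were widest in replicate 3, between -0.99 and -0.75. In 4n replicates 3 and 4 the sum of fibroblast markers was also low, at 29527 and 29815 CPM, against 57772 and 44355 CPM in 2n. Most of that sum was Col1a1 and Col3a1, at 16942 and 9474 CPM in 4n replicate 4. Among the 4n libraries, replicate 4 was highest for Dcn (574 CPM) and Lum (376 CPM), and lowest for Col3a1, Postn, Tcf21 and Ddr2. The part of fibroblasts in the result was not tested. With the block, 2 of the 8 fibroblast markers were called lower in 4n, against 0.608% of all genes tested, and without it 0 of 8 were. Loxl2 passed without 4n replicate 1 (log2 fold change -0.84, edgeR adjusted p = 0.0375), and with the block and without the pair of replicate 1 (-0.72, edgeR adjusted p = 0.0246). It did not pass without any of the other 7 libraries (-0.64 to -0.39, edgeR adjusted p from 0.345 to 0.663), nor with the block without the pair of replicate 2, 3 or 4 (edgeR adjusted p = 0.139, 0.101 and 0.294). Leaving out 4n replicate 4 or any single 2n library gave 0 calls in either direction over all genes. The same held with the block without the pair of replicate 2 or 4. In those settings the failure is not particular to Loxl2.

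**Figure D5:**
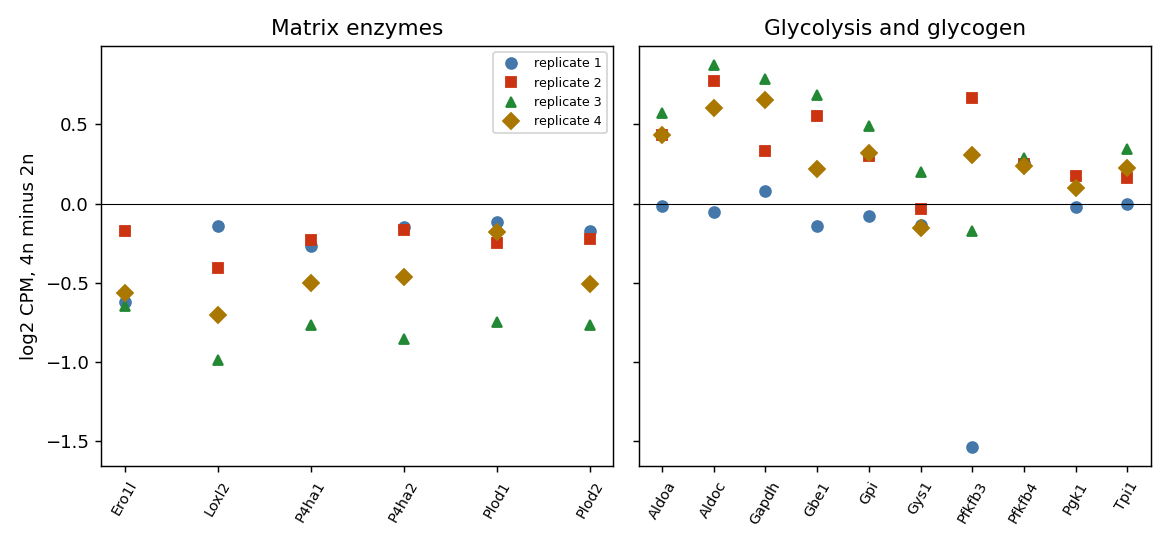
Difference of log2 CPM, 4n minus 2n, within each replicate number for the 6 genes of collagen modification and folding (left) and the 10 tested glycolysis and glycogen genes (right). All points on the left lie below 0, with replicate 3 lowest for each gene, while on the right 9 of 10 lie above 0 in each of replicates 2, 3 and 4 and 2 of 10 in replicate 1.

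Glycolysis and glycogen genes leaned the other way, with 8 of 10 fold changes positive and 0 past the threshold. Their median log2 difference within the pair was -0.04, 0.32, 0.42 and 0.27 in the pairs of replicates 1 to 4, of which the first was the lowest. Gapdh had the smallest p of the group, with 873 ± 312 CPM in 4n and 621 ± 183 CPM in 2n (SD, n = 4 each). It was higher in 4n in 4 of 4 pairs and did not pass (edgeR adjusted p = 0.458). Slc16a3 was also higher in 4n in 4 of 4 pairs, with log2 differences of 0.20, 1.51, 0.95 and 0.68 in replicates 1 to 4. Its log2 fold change of 0.64 ± 0.78 (SE) did not pass (edgeR adjusted p = 0.713; 0.0645 with the block), and without the pair of replicate 1 the fit with the block gave 1.01 (edgeR adjusted p = 0.00952). Without the pair of replicate 2, 3 or 4 that fit did not pass (edgeR adjusted p = 0.122, 0.182 and 0.265), and without 2n replicate 2 and without the block the value was 0.25 (edgeR adjusted p = 0.859). Of these settings, those without the pair of replicate 2 or 4 and without 2n replicate 2 called 0 genes of the whole table.

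Stc1 and Tfrc had the largest differences of the list. Stc1, a secreted stanniocalcin on chromosome 15 from 50891127 to 50903162, had 46.1, 52.2, 252 and 107 CPM in 4n replicates 1 to 4 and 29.7, 19.9, 17.7 and 39.0 CPM in 2n. Every 4n library was above every 2n library, and 4n replicate 3 stood highest. The log2 fold change was 2.10 ± 0.54 (SE), and it did not pass in edgeR without or with the block (edgeR adjusted p = 0.0825 and 0.117), but did in DESeq2 (adjusted p = 0.000774). Without 4n replicate 1 it passed (edgeR adjusted p = 0.0263), it did not without any other single library (0.0633 to 0.234), and without 4n replicate 3 the log2 fold change was 1.36 (edgeR adjusted p = 0.120). Leaving out 4n replicate 4 or any single 2n library gave 0 calls over all genes, so those failures are not particular to Stc1. With the block it passed without the pair of replicate 1 (2.17, edgeR adjusted p = 0.0417) and without that of replicate 3 (1.17, edgeR adjusted p = 0.0108), but not without that of replicate 2 or 4 (1.93 and 1.91, edgeR adjusted p = 0.220 and 0.307). In the last 2 settings 0 genes of the whole table were called.

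Tfrc, the transferrin receptor on chromosome 11 from 71397383 to 71419223, takes up iron. It had 95.6, 71.7, 535 and 242 CPM in 4n replicates 1 to 4 and 71.3, 38.2, 145 and 87.8 CPM in 2n. The groups overlapped, but 4n was higher in 4 of 4 pairs, by 0.42, 0.90, 1.89 and 1.46 on the log2 scale. Its log2 fold change of 1.47 ± 0.64 (SE) did not pass (edgeR adjusted p = 0.281; 0.0535 with the block), was 0.67 without 4n replicate 3, and with the block and without the pair of replicate 1 it was 1.41 (edgeR adjusted p = 0.00338). Without the pair of replicate 2, 3 or 4 that fit did not pass (edgeR adjusted p = 0.123, 0.0560 and 0.257), but without that of replicate 2 or 4 it called 0 genes of the whole table. The library with the highest Stc1 and Tfrc, 4n replicate 3, also had the highest sum of cardiomyocyte markers, 30407 CPM against 4171 to 11007 CPM in the other 4n libraries, and the part of these cells in the result was not tested.

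At the negative end, Pfkfb3, Ero1l and Stc2 had the lowest fold changes. Pfkfb3, with -0.60 ± 0.58 (SE, edgeR adjusted p = 0.631), was 0.34 without 2n replicate 1. Stc2 had -0.56 ± 0.56 (SE, edgeR adjusted p = 0.649; 0.0627 with the block) and was lower in 4n in 4 of 4 pairs. With the block and without the pair of replicate 1 it was -0.78 (edgeR adjusted p = 0.0240), and it did not pass without the pair of replicate 2, 3 or 4 (edgeR adjusted p = 0.129, 0.0655 and 0.273). Leaving out the pair of replicate 2 or 4 gave 0 calls over all genes. Ndrg1 and Car9, with wide gaps in replicate 2, were higher in 4n in 2 of 4 pairs each.

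For the other genes of the pathway, 0 of 29 tested rows of other hypoxia-induced genes and 0 of 9 genes of HIF subunits and hydroxylases were called in either direction without the block, and at an unadjusted p under 0.05 the first list had 1 higher and 0 lower and the second 0 in either direction, against the same 1630 and 626 of 12983 genes. With the block Cxcr4, a chemokine receptor, was called higher in 4n (log2 fold change 3.03, edgeR adjusted p = 0.0161). It had 3.81, 3.49, 4.58 and 59.2 CPM in 4n replicates 1 to 4 and 1.04, 0.694, 0.318 and 4.45 CPM in 2n. Endothelial markers were also highest in 4n replicate 4, at 371 CPM against 62.1 to 82.8 CPM in the other 4n libraries, and their part in the result was not tested.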

How the data were processed

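Gene counts and FPKM values of 8 libraries were used as deposited by the authors, on Rnor 6.0 with HISAT2 2.0.4 per the submitters' processing notes. The sources used here do not give the counting tool, its strand setting or its handling of reads that match several copies. Libraries of 4n and 2n cells were compared on the deposited counts with edgeR 4.0.16 (quasi-likelihood test, TMM scaling, filterByExpr, Benjamini-Hochberg adjustment over 12983 genes, threshold 0.05) in R 4.3.3. CPM were computed from the counts with TMM library sizes, and log2 CPM used a prior count of 2. The FPKM deposited by the authors served for levels between genes and, with limma 3.58.1 and pseudocounts of 0.1 and 1, as an alternative. DESeq2 1.42.0 was another. Other alternatives were RLE or total count scaling, no filter or at least 5 CPM in at least 4 libraries, leaving out mitochondrial genes, leaving out each library or pair, and the replicate number as a block.

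Libraries of the same number deviated together from their group means (r = 0.429, 0.585, 0.268 and 0.648 for replicates 1 to 4), each correlating best with its own number. Their sample descriptions also share a date-like code. The numbers were taken as pairs on these grounds, since no protocol states the pairing. Members and gene lists were chosen with earlier results of these data known. Values in every library are given for members called in either fit, members with both replicate 2 libraries outside the other 6, the 3 with the highest FPKM and the 3 with the largest fold change each way. Of other lists, up to 6 genes by smallest p and up to 6 by the gap of replicate 2 are named. The 10 genes most like the members needed at least 5 CPM on average.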

Additional observations from a re-analysis of the deposited data

Results flagged for a closer look

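Each member's 4 libraries per group were searched for a library far from the other 3 by Dixon's ratio, past its critical value for 4 values. In 72 groups of 4 libraries, 10 such libraries were found. The rule flags about 1 in 20 groups by chance, but the members vary together in the same libraries. The groups are therefore not independent, and the count cannot be set against that rate. Of the 10 libraries found, 6 were replicate 2 libraries at the low end. Insig2 had 6.17 CPM in 4n replicate 2, against 12.2 to 13.2 CPM in the other 4n libraries, and 4.47 CPM in 2n replicate 2, against 11.5 to 12.6 CPM in the other 2n libraries. Pgk1 had 621 CPM in 4n replicate 2, against 1596 to 1777 CPM in the other 4n libraries. In 2n replicate 2, Plod1 had 318 CPM, against 599.8 to 653 CPM in the other 2n libraries, Tpi1 had 88.2 CPM, against 313 to 333 CPM, and Gpi had 201 CPM, against 679 to 735 CPM.

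The other 4 stood at the high end. Ddit4 had 88.2 CPM in 4n replicate 1, against 24.8 to 34.9 CPM in the other 4n libraries, and 122 CPM in 2n replicate 1, against 24.6 to 28.5 CPM in the other 2n libraries. Loxl2 had 956 CPM in 4n replicate 1, against 439 to 521 CPM in the other 4n libraries. Bhlhe40 had 180.4 CPM in 4n replicate 4, against 122 to 126 CPM in the other 4n libraries.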

How the results depend on the processing

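The count of members with both replicate 2 libraries lowest was 27 to 31 of 36 under the alternatives tried, and 26 of 34 with the filter at 5 CPM, while the share of all genes was 5.82% to 13.6%. The median correlation between members was 0.27 without replicate 2 and 0.94 without replicate 3. For 4n against 2n, members called higher numbered 1 with DESeq2, 0 to 1 when 1 library was left out, and 0 to 8 when a pair was left out with the replicate block. Members called lower numbered 1 with the replicate block, 0 to 1 when 1 library was left out, and 0 to 2 when a pair was left out with the block.

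Over all genes, 554 were called higher and 79 lower with the replicate block, 931 and 82 with DESeq2, and 186 higher and 8 lower from FPKM with a pseudocount of 1. The filter at 5 CPM gave 196 higher, total count scaling 12 lower, leaving out mitochondrial genes 2 lower and FPKM with a pseudocount of 0.1 15 lower. Leaving out 1 library gave 0 to 870 higher and 0 to 90 lower, and leaving out a pair with the block gave 0 to 1254 higher and 0 to 399 lower (558 and 50 without replicate 3). Without both replicate 2 libraries, chosen after seeing the data, edgeR called 0 in either direction, against 1479 (higher) and 431 (lower) before adjustment at 0.05. The cause was not tested.

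The members' median log2 fold change was -0.22 with total count scaling and -0.26 and -0.22 from FPKM with pseudocounts of 0.1 and 1, where the median of all genes moved by -0.23, -0.24 and -0.19, and -0.31 to 0.28 when 1 library was left out. Of 11 genes followed through all settings, Pfkfb3 reversed, at 0.34 without 2n replicate 1 (-0.92 to 0.34 over libraries left out) and 0.24 with the block without the pair of replicate 1. Pfkfb4 and, in replicate 2, Ankrd37 rest on few counts.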
